A study of Rattus norvegicus with 28 samples.

Results

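The collagen, laminin and nidogen genes of the rat lung are described here across injury and mechanical ventilation. They are the rows of the deposited table whose gene name is a collagen chain, a laminin alpha, beta or gamma chain, Nid1, Nid2 or Hspg2, with a mean of at least 10 scaled reads over the 28 libraries. A scaled read is a read count divided by 1 size factor per library. Of 17002 genes in the table, 38 of those reported here had such a name and 35 reached the mean. Col24a1, at a mean of 18.3, was just inside, and Col2a1 (4.09), Col19a1 (4.01) and Lama1 (2.69) were outside. The 35 comprise 9 fibrillar collagen chains, 11 basement membrane genes (4 type IV collagen chains, 5 laminin chains and both nidogens), 14 other collagens and Col4a3bp. Col4a3bp fits the name pattern but encodes a ceramide transfer protein, so it is counted but kept apart from the collagens. Hspg2, Col4a2, Col15a1, Col18a1, Lama3, Lama4, Lamb1 and Lamb2 are not analysed here.

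Basement membranes are thin sheets of matrix on which epithelia and endothelia rest, and in the alveolus the sheets of both are largely fused into the barrier across which gas diffuses. Laminins are heterotrimers of an alpha, a beta and a gamma chain that polymerise at the cell surface, type IV collagen forms a second network, and nidogens bridge the networks. Most basement membranes hold the alpha1 and alpha2 chains of type IV collagen, whereas the alpha3, alpha4 and alpha5 chains form a separate network known from kidney glomerulus and alveolus. Fibrillar collagens of types I and III, made mainly by fibroblasts, give the interstitium its tensile strength, and types V and XI are minor chains that regulate fibril assembly. Other collagens link fibrils and cells (type VI microfilaments, fibril-associated types IX, XII, XVI and XX), anchor basement membranes (type VII) or span the plasma membrane (types XIII, XVII and XXIII).

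Sequencing of polyadenylated RNA from the right upper lobe of lungs of Sprague Dawley rats was used to ask how lung mRNA differs between ventilation with constant and with variable tidal volumes. Unventilated lungs were uninjured (control_blank, n = 3) or were taken 14 days after chronic injury was induced (control_chronic, n = 5). Ventilated lungs had no earlier injury (healthy), an acute injury (acute) or a chronic injury (chronic), and ventilation was volume-controlled with constant (VCV) or variable (noisy) tidal volumes. This gave 4 libraries each of healthy_VCV and acute_noisy, and 3 each of healthy_noisy, acute_VCV, chronic_VCV and chronic_noisy. How injury was induced, the length of ventilation and the age of the rats are not given in the sources used here, and there is no acute injury group without ventilation. The labels do not say that each library is a separate animal, so p-values measure the spread between these libraries, which may in part be technical.

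Depth ran from 6024093 to 31923838 reads per library, both shallowest libraries being control_chronic. The S-numbers of the titles fall into 4 series (12, 14, 15 and 18) whose meaning the labels do not give. Series 12 holds control_blank and acute_VCV, series 18 holds control_chronic, series 14 holds chronic_noisy, 3 healthy_VCV and 2 acute_noisy libraries, and series 15 holds healthy_noisy, chronic_VCV, 1 healthy_VCV and 2 acute_noisy libraries. Only acute_VCV minus control_blank lies within 1 series. In the other comparisons with unventilated lungs, and in every other comparison with acute_VCV (acute_noisy minus acute_VCV, acute_VCV minus healthy_VCV and the acute mode interaction), series and group cannot be told apart. The 7 alveolar type 2 markers measured summed to 283960 to 834070 scaled reads per library with none at 0. In a whole lobe, fewer cells of a type and less RNA per cell cannot be told apart. All comparisons with control_blank share its 3 libraries, and both ventilated chronic groups share control_chronic.

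Col4a3 and Col4a4, whose chains co-assemble, lie head to head on chromosome 9, and Col4a1 lies head to head with Col4a2 on chromosome 16. The sequences at these shared starts are shown because Col4a3 and Col4a4 were low in acute_VCV, where Col4a1 was high. They are RefSeq sequences of build GRCr8, a later build than the rn4 named for the counts. The starts of Col4a3 and Col4a4 are 413 bases apart, so the 250 bases before each start (Col4a3 at chr9:91323740-91323989, plus strand, and Col4a4 at chr9:91323578-91323827, minus strand) share 88 bases. The starts of Col4a1 and Col4a2 are 77 apart, and the 76 bases between them (chr16:84885521-84885596, plus strand) are printed whole. Capitals mark GGGCGG, the GC box, or its reverse complement.
Col4a3 upstream: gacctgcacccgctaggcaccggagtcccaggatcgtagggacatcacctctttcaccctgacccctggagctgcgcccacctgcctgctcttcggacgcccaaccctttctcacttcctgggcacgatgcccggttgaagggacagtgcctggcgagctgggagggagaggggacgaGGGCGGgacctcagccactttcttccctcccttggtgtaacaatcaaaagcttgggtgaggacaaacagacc
Col4a4 upstream: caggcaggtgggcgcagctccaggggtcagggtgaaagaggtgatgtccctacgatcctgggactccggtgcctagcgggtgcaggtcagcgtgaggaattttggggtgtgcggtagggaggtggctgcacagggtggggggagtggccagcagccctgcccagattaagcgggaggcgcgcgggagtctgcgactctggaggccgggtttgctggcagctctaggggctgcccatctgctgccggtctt
Col4a1 and Col4a2, between starts: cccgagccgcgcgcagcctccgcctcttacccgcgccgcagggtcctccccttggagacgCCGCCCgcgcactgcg
The Col4a3 stretch and the stretch between Col4a1 and Col4a2 each hold a GC box, and no searched motif lies in the Col4a4 stretch.

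A RefSeq promoter window of 300 bases (250 before and 50 after the start) was found for 29 of the 35 genes. None was found for Col1a1, Col3a1, Col6a2, Col12a1, Nid2 and Col4a3bp. A GC box on either strand was in 20 of these 29, against 33.1% of all 33469 windows. A gene was counted when any of its windows held the motif (Col24a1 had several), whereas the shares are of single windows. A TATA box (TATAAA) was in 3 of 29 (14.2% of all windows), CCAAT in 8 (37.5%) and the AP-1 motif TGACTCA in 1 (4.63%). None of the 4 motifs contains another, both strands were read, and a match is a run of letters, not a bound site. Besides Col4a4 and Col4a3, the pairs Col6a1 and Col6a2, and Col3a1 and Col5a2 are genome neighbours.

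Ventilation of uninjured lungs with constant volumes gave the most calls against unventilated lungs, and nearly all basement membrane genes were higher. A gene is called when the limma test gave an adjusted p under 0.05 over the 14908 genes tested, and log2 differences are given ± their standard error. In healthy_VCV minus control_blank, 21 of the 35 genes were called higher and 2 lower, where 29.3% and 28.1% of all genes were called. By class, 10 of 11 basement membrane genes, 4 of 9 fibrillar collagens and 7 of 14 other collagens were higher, with median log2 differences of 1.35, 0.88 and 0.58 beside -0.03 over all genes. The only basement membrane gene not called was Lamc3, and the 2 lower genes were Col9a2 and Col27a1. Calls of 15 of the 23 genes held in every alternative run, among them Col4a1, Col4a3, Col4a4, Col4a5, Lama2, Lama5, Lamc1, Nid1, Col5a1, Col6a1 and Col6a3. Here and in all other comparisons with an unventilated group or with acute_VCV, the alternative runs held no series covariate. Calls that held in every alternative there were thus not adjusted for series. Of marker lists in the same comparison, the endothelial list had 4 higher and 1 lower of 8, summing to 32768 to 48706 scaled reads in control_blank and 59821 to 66455 in healthy_VCV. The fibroblast list had 1 higher (Pdgfra) and 1 lower (Mfap5) of 8, with sums of 13037 to 19166 and 20231 to 23462. Pdgfra, at group means of 1468.5 and 7007.9, made up most of that difference. Means of Dcn, Lum, Fbln1 and Thy1 were also higher, and those of Dpt, Mfap5 and Tcf21 lower. All 8 neutrophil markers were higher, with sums of 2923 to 3642 and 20494 to 34056, and 4 of 5 macrophage markers, with sums of 3869 to 5759 and 6637 to 9668. Of 6 smooth muscle and pericyte markers 2 were higher and 3 lower, with sums of 23522 to 32671 and 13793 to 15113. Of 6 cardiac muscle markers 3 were lower, with sums of 9427 to 16874 and 1739 to 9106. The part of these cells in the result was not tested.

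Variable ventilation of uninjured lungs gave fewer calls. In healthy_noisy minus control_blank, 9 genes were higher and 1 lower (17.5% and 14.6% of all genes). Of these, 5 were basement membrane genes (Col4a1, Col4a3, Col4a4, Lama2 and Lama5), and only the Col4a3 call held in every alternative run. The count of 10 fell to 2 without control_blank_016, 5 without control_blank_021, 4 without healthy_noisy_029 and 3 without healthy_noisy_078. Calls over all genes are in most cases not set beside such counts of altered fits. A changed count is therefore not read as particular to these genes, here or below. With edgeR the share of higher genes among all called genes was 42.1% instead of 54.5%.

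In acute_VCV minus control_blank, within series 12, 3 genes were higher and 6 lower (20.6% and 16.7% of all genes). All 3 higher genes were basement membrane genes (Lamc1, Col4a1 and Lama5). The lower genes were Lamc3, Col9a2, Col6a6, Col23a1, Col27a1 and Col13a1. For lower genes this is near the share of all genes, and for higher genes below it. Median differences were 0.32 for basement membrane genes, -0.24 for fibrillar and -0.46 for other collagens, against 0.07 for all genes.

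With acute injury and variable volumes, acute_noisy minus control_blank, 11 genes were higher and 5 lower (31.3% and 28.4% of all genes). For higher genes this is at the share of all genes, and for lower genes below it. The higher genes were 7 of 11 basement membrane genes, 1 fibrillar collagen (Col5a1) and 3 other collagens, all of type VI. Col4a3, Col4a4, Lama2, Nid1, Col5a1 and these type VI chains (Col6a1, Col6a2 and Col6a3, but not Col6a6) were called higher here and not in acute_VCV. Of these, Col4a3, Col4a4, Lama2, Col5a1, Col6a1 and Col6a3 were also called between both acute groups, whereas Nid1 (adjusted p = 0.0807) and Col6a2 (adjusted p = 0.229) were not.

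In control_chronic minus control_blank, which sets series 18 against series 12, 0 were higher and 3 lower (Lamc3, Col5a3 and Col11a2), where 9.3% and 5.55% of all genes were called. This count of 3 was 0 without control_blank_016 and 7 without control_blank_074. Calls over all genes went from 2214 to 204 and to 3635 in the same runs. The share of higher genes among all called genes was 62.6% in limma and 38.4% in edgeR. In chronic_VCV minus control_chronic, 6 were higher and 1 lower (6.89% and 7.9% of all genes), a count of 7 that went to 12 when chronic_VCV_067 was left out and to 3 when chronic_VCV_069 was. In chronic_noisy minus control_chronic, 17 were higher and 1 lower (19.1% and 18.1%), with 7 of 11 basement membrane, 4 of 9 fibrillar and 6 of 14 other collagens higher. That count of 18 was 11 without chronic_noisy_079 and 7 without chronic_noisy_084, and Col4a3, Col4a4, Lama2, Col6a1, Col6a3 and Col9a2 were called in every alternative run.

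**Figure D1:**
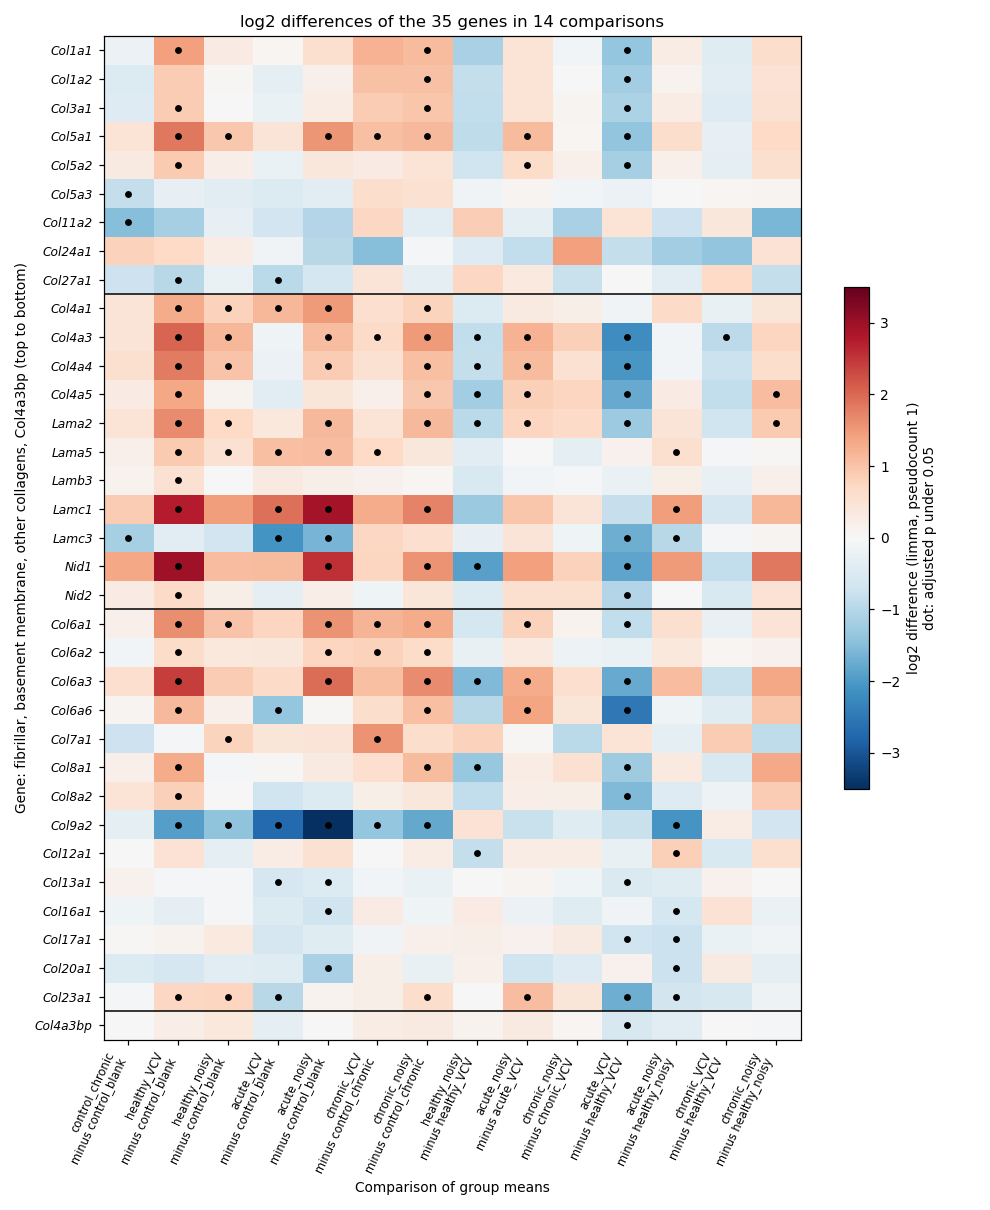
Log2 differences (color scale) of the 35 genes (rows, by class) in 14 comparisons of groups (columns), with a dot for each adjusted p under 0.05. The healthy_VCV column is mostly higher for basement membrane and type VI genes, and the acute_VCV minus healthy_VCV column holds 21 lower calls.

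The ventilation modes were then compared directly. In uninjured lungs no gene was higher and 8 were lower with variable volumes (4.31% and 6.01% of all genes), namely Nid1, Col6a3, Col8a1, Col4a5, Lama2, Col4a3, Col4a4 and Col12a1. A fit of those groups alone called 22. The count of 8 was 0 without any single healthy_VCV library of series 14 or without healthy_noisy_029 or healthy_noisy_061, 2 without healthy_VCV_062 and 13 without healthy_noisy_078. With the series as a covariate it was also 0, and within series 15, with a single healthy_VCV library assumed to vary like the other groups, the count was 0. In acutely injured lungs the direction of the calls was opposite, but there series and mode cannot be told apart. With variable volumes 10 genes were higher and none lower (11.9% and 12.3% of all genes): Col6a6, Col6a3, Col4a3, Col5a1, Col4a4, Col23a1, Col4a5, Col6a1, Lama2 and Col5a2. That count of 10 was 3 without acute_VCV_040, 5 without acute_noisy_047 and 5 without acute_noisy_050, and 0 in a fit of those groups alone. In chronically injured lungs limma called 0 of 35 (2.43% of all genes in either direction), with 5 at an unadjusted p under 0.05 and a smallest adjusted p of 0.0723, and edgeR called 0 with 6 unadjusted. Without chronic_VCV_069 limma called 1.

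The difference between these mode effects was tested as an interaction. Noisy minus VCV was larger after acute injury than in uninjured lungs for 17 genes and smaller for none (19.6% and 19.4% of all genes). It was larger after chronic injury for 10 and smaller for 2 (15.7% and 14.0%). The chronic count of 12 was 5 without chronic_VCV_067, 6 without chronic_noisy_084, 7 without healthy_noisy_061 and 19 without chronic_VCV_069, and 0 with the series as a covariate. The acute count of 17 lay between 12 and 22 when single libraries were left out, and was 26 with only the series 14 and 11 with only the series 15 acute_noisy libraries. A series covariate could not be fitted to it, since acute_VCV shares no series with the other groups of the interaction, so series and group cannot be told apart there.

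Between injuries under constant volumes, acute_VCV minus healthy_VCV had 0 higher and 21 lower genes (26.1% and 26.4% of all genes), with 7 basement membrane genes, 5 fibrillar and 8 other collagens lower. As all acute_VCV libraries are in series 12 and the healthy_VCV libraries in series 14 and 15, injury and series cannot be told apart in these calls. Under variable volumes, acute_noisy minus healthy_noisy had 3 higher and 6 lower (12.9% and 13.9%). With edgeR these were 6 higher and 2 lower, and over all genes its share of higher calls was 63.6% instead of 48.2%. The count of 9 was 1 without healthy_noisy_029, 2 without healthy_noisy_061, 2 without acute_noisy_047, 1 without acute_noisy_050, 14 without acute_noisy_046 and 14 without acute_noisy_053, 1 with the series as a covariate and 0 within series 15. In chronic_VCV minus healthy_VCV only Col4a3 was called, lower, at -0.92 ± 0.23 (adjusted p = 0.0414), where 2.46% of all genes were called. Counts there were 0 without any healthy_VCV library or without chronic_VCV_067 or chronic_VCV_073, 5 without chronic_VCV_069, and 0 with the series as a covariate or within series 15. In chronic_noisy minus healthy_noisy, Col4a5 and Lama2 were called higher (4.69% of all genes, with 61.8% of edgeR's calls higher against 48.4% in limma), at 1.09 (adjusted p = 0.039) and 0.91 (adjusted p = 0.043). Those counts were 0 without healthy_noisy_029, healthy_noisy_061, chronic_noisy_079 or chronic_noisy_084, 5 without healthy_noisy_078 and 4 without chronic_noisy_075. The chronic_noisy libraries are all in series 14 and the healthy_noisy libraries in series 15, and with the series as a covariate both calls were lost.

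Among type IV chains, the alpha3 and alpha4 genes were higher than in control_blank in both healthy groups and in acute_noisy but not in acute_VCV, whereas alpha1 was higher in all 4 of these groups. Col4a3 stood at 2025, 2308 and 4079.8 scaled reads in control_blank and at 11089, 12172, 9839 and 10554 in healthy_VCV. In healthy_noisy it was at 7366, 5135 and 5770.0, in acute_VCV at 1905, 2403 and 3126 and in acute_noisy at 4829, 6490.1, 5642 and 5855. All healthy_VCV, healthy_noisy and acute_noisy values lay above every control_blank value, whereas acute_VCV overlapped it. The log2 differences from control_blank were 2.03 ± 0.23 (adjusted p = 7.85e-07) in healthy_VCV, 1.17 ± 0.25 (adjusted p = 0.00132) in healthy_noisy, -0.14 ± 0.25 (adjusted p = 0.691) in acute_VCV and 1.09 ± 0.23 (adjusted p = 0.000361) in acute_noisy. Col4a3 was 4.48-fold lower in acute_VCV than in healthy_VCV (log2 -2.16 ± 0.23, adjusted p = 1.33e-07). In acute lungs it was higher with variable than with constant volumes by 1.22 ± 0.23 (adjusted p = 0.00209), with no overlap. That difference was 1.32 (adjusted p = 0.00195) with only the series 14 and 1.13 (adjusted p = 0.0107) with only the series 15 acute_noisy libraries, and the call was lost in a fit of those groups alone (log2 1.22, adjusted p = 0.0523).

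In chronically injured lungs Col4a3 stood at 3429, 3022, 4270.1, 2717 and 5189.7 without ventilation, at 4372, 7653 and 5672 in chronic_VCV and at 9818, 9925 and 10744 in chronic_noisy. Every chronic_noisy library was above every control_chronic library, by 1.49 ± 0.22 (adjusted p = 7.19e-05), and above every chronic_VCV library, a difference of 0.82 ± 0.25 (adjusted p = 0.0723) that was not called. The smaller difference in chronic_VCV, 0.67 ± 0.22 (adjusted p = 0.0436), was lost with quantile normalization, in a fit of those groups alone, without control_chronic_113 and control_chronic_114 and without control_chronic_113, control_chronic_114, control_chronic_116, chronic_VCV_069 or chronic_VCV_073 (log2 0.46 to 0.68, adjusted p = 0.052 to 0.247).

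Col4a4 was called in the same 3 ventilated groups without chronic injury as Col4a3. In healthy_noisy it was at 7186, 4946 and 9068, overlapping control_blank, and that call did not hold in every alternative. It was at 2572, 3068 and 5204 in control_blank, 11899, 14225, 11884 and 11288 in healthy_VCV and 2449, 2787 and 4027 in acute_VCV. In acute_noisy it was at 6178, 7230.3, 6071 and 6363, above every acute_VCV and control_blank value. The differences from control_blank were 1.83 ± 0.26 (adjusted p = 7e-06) in healthy_VCV, -0.19 ± 0.28 (adjusted p = 0.618) in acute_VCV and 0.90 ± 0.26 (adjusted p = 0.00527) in acute_noisy. Acute_VCV was below healthy_VCV (log2 -2.02 ± 0.26, adjusted p = 1.52e-06). The acute_noisy call was lost without control_blank_016 (log2 0.69, adjusted p = 0.0517), and the call between acute modes, 1.09 (adjusted p = 0.00672), was lost in a fit of those groups alone and without acute_VCV_040 (log2 0.94 to 1.09, adjusted p = 0.0523 to 0.061). The log2 ratio of Col4a3 to Col4a4 stayed between -0.65 and 0.05 over all 28 libraries. No gene lengths were used, so only its spread between libraries is read.

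Col4a5, which supplies the remaining chain of that network, stood at 2194, 2356 and 4309 in control_blank, 7469, 7944, 6603 and 6743 in healthy_VCV and 2775, 2329 and 4564 in healthy_noisy. Its healthy_VCV values lay above all control_blank values, and its healthy_noisy values overlapped them. The differences were 1.35 ± 0.27 (adjusted p = 0.000244) and 0.13 ± 0.29 (adjusted p = 0.752). In acute_VCV it was at 2057, 1933 and 2413, which was -1.75 (adjusted p = 1.45e-05) against healthy_VCV, and in acute_noisy at 3233, 4314, 4901 and 3058. It was higher in chronic_noisy than in control_chronic by 0.94 ± 0.26 (adjusted p = 0.00804), with 4743, 7115 and 8478 against 2803 to 5046, with overlap, a call lost without chronic_noisy_084 (log2 0.76, adjusted p = 0.0712).

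Col4a1, a chain of the ubiquitous network, stood at 14378, 22729.6 and 28695 in control_blank, 50798, 54728, 49037 and 51966 in healthy_VCV and 40369, 52101 and 49575 in acute_VCV. In acute_noisy it was at 35817, 80754, 81956 and 51158, both series 14 libraries (acute_noisy_047 and acute_noisy_050) being higher than both of series 15. All of these groups lay above control_blank, by 1.29 ± 0.26 (adjusted p = 0.000269) in healthy_VCV, 1.16 ± 0.28 (adjusted p = 0.00262) in acute_VCV and 1.48 ± 0.26 (adjusted p = 6.28e-05) in acute_noisy, calls that held in every alternative. In healthy_noisy Col4a1 was at 38129, 26434 and 49681, overlapping control_blank, and its call there did not hold in every alternative. Unlike the alpha3 and alpha4 genes, Col4a1 did not differ detectably between acute_VCV and healthy_VCV (-0.13 ± 0.26, adjusted p = 0.699). The log2 ratio of Col4a4 to Col4a1 ran from -4.22 to -3.62 in acute_VCV, below its range in control_blank (-2.89 to -2.46) and healthy_VCV (-2.20 to -1.94), with acute_noisy at -3.75 to -2.54.

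**Figure D2:**
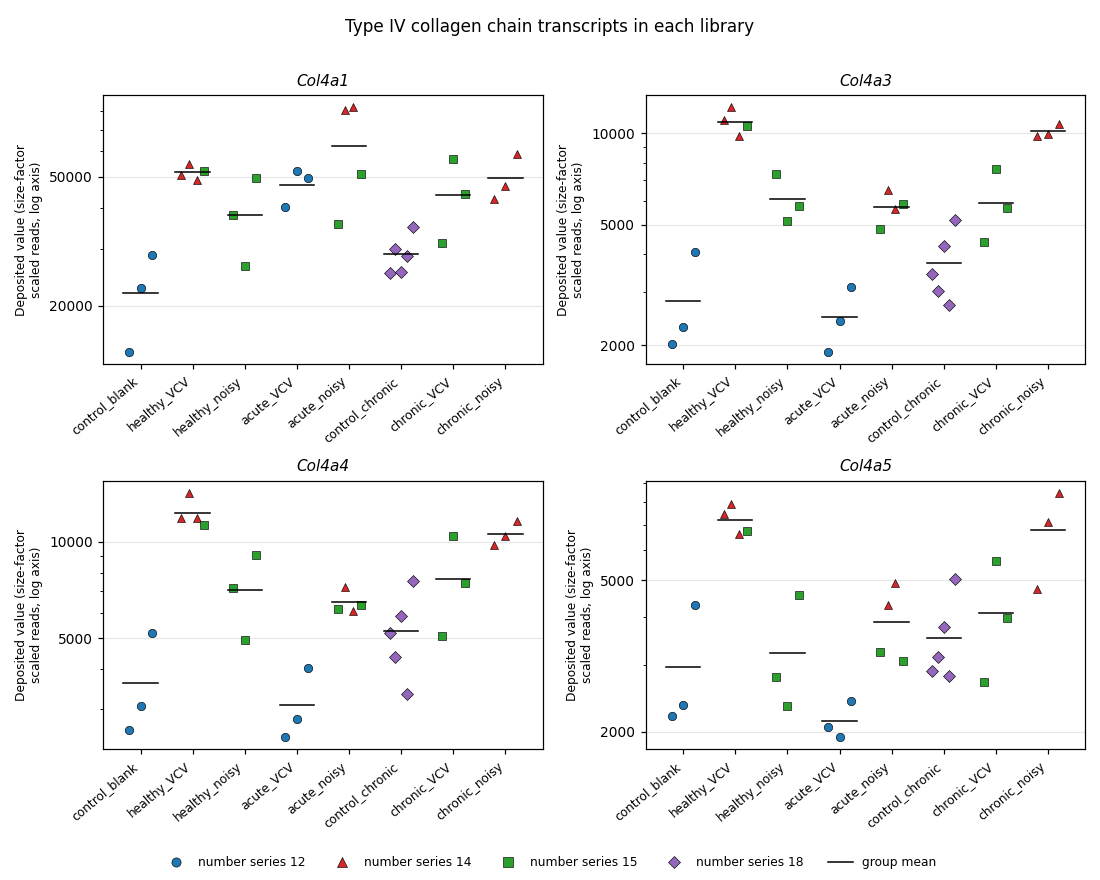
Scaled reads per library (log axis) of 4 type IV collagen genes in the 8 groups; the marker shape gives the number series and the line the group mean. Col4a3 and Col4a4 are low in acute_VCV (Col4a3 at 1905 to 3126) and high in healthy_VCV (9839 to 12172), whereas Col4a1 is above control_blank in both.

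Among the laminins, Lamb3, the beta3 chain of epithelial basement membranes, was called in neither acute group. It was at 2069, 2228 and 2775 in control_blank, 3349.5, 2373 and 3151 in acute_VCV and 2988, 2938, 2611 and 2371 in acute_noisy, with overlap of each acute group and control_blank. The differences were 0.32 ± 0.20 (adjusted p = 0.207) and 0.22 ± 0.19 (adjusted p = 0.325). Its only call was healthy_VCV, 0.54 ± 0.19 (adjusted p = 0.0159), lost without control_blank_016 or control_blank_021 (log2 0.45 to 0.51, adjusted p = 0.0527 to 0.0836).

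Lamc1, the gamma1 chain of most laminins, stood at 719.7, 1102 and 2095 in control_blank, 8349, 7667, 8733 and 7375 in healthy_VCV and 2750.3, 1867 and 6729 in healthy_noisy. In acute_VCV it was at 2279.9, 5218 and 7928 and in acute_noisy at 5079, 17559.9, 18007 and 3941. Healthy_VCV, acute_VCV and acute_noisy lay wholly above control_blank, acute_noisy_047 and acute_noisy_050 being several times higher than both other acute_noisy libraries. The differences from control_blank were 2.76 ± 0.53 (adjusted p = 0.000141), 1.94 ± 0.57 (adjusted p = 0.00957) and 2.91 ± 0.53 (adjusted p = 7.75e-05) in healthy_VCV, acute_VCV and acute_noisy. The acute_VCV call was lost without control_blank_016 or acute_VCV_049 (log2 1.54 to 1.58, adjusted p = 0.0581 to 0.0711), and acute_noisy stayed called with either series alone, at 3.91 (adjusted p = 2.22e-06) and 1.92 (adjusted p = 0.00721). In chronic_noisy it was at 5938, 6981 and 9310.3 against 2246, 2248, 2019, 1628 and 3062 in control_chronic, without overlap, a difference of 1.73 ± 0.51 (adjusted p = 0.0107) lost without chronic_noisy_084 (log2 1.55, adjusted p = 0.0629).

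Lamc3, a gamma chain of more restricted expression, was lower in both acute groups, where Lamc1 was higher. It stood at 891, 472 and 599.9 in control_blank, 165, 145 and 134 in acute_VCV and 97.4, 335, 196 and 262 in acute_noisy, both acute groups lying below every control_blank value. The differences were -2.09 ± 0.34 (adjusted p = 6.34e-05) in acute_VCV and -1.64 ± 0.32 (adjusted p = 0.000143) in acute_noisy, calls that held in every alternative. In control_chronic it was at 388, 246, 192, 358 and 273, a difference of -1.16 ± 0.30 (adjusted p = 0.0164) lost without control_blank_016 (log2 -0.91, adjusted p = 0.188).

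Lama5, the alpha5 chain of adult alveolar laminin, was higher in every ventilated group without earlier or with acute injury. It stood at 6204, 4665 and 5467 in control_blank, 8437, 12317, 11504 and 9071 in healthy_VCV, 10023, 9776 and 14768 in acute_VCV and 9731, 11794, 13704 and 10748 in acute_noisy, with no overlap of any of these with control_blank. The differences were 0.92 ± 0.19 (adjusted p = 0.000234), 1.06 ± 0.20 (adjusted p = 0.000241) and 1.08 ± 0.19 (adjusted p = 4.34e-05). In healthy_noisy, at 7716, 7447 and 8217, it was 0.53 ± 0.20 (adjusted p = 0.0447), lost with edgeR, in a fit of those groups alone and without control_blank_016, control_blank_021, control_blank_074, healthy_noisy_029, healthy_noisy_061 or healthy_noisy_078 (log2 0.42 to 0.62, adjusted p = 0.0517 to 0.164). In chronic_VCV, at 6936, 10439 and 13455 against 5601 to 6701 in control_chronic, it was 0.71 ± 0.18 (adjusted p = 0.00963), lost without chronic_VCV_073 (log2 0.49, adjusted p = 0.0949).

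Lama2, the alpha2 chain found around muscle and nerve, stood at 535, 629 and 1023 in control_blank, 2312, 2192, 2177 and 2125 in healthy_VCV and 895, 987 and 864 in acute_VCV. Healthy_VCV was wholly above both other groups. It was higher than control_blank in healthy_VCV by 1.65 ± 0.24 (adjusted p = 7.22e-06) and in acute_noisy, at 1023, 1924, 2265 and 1305, by 1.15 ± 0.24 (adjusted p = 0.000282), and lower in acute_VCV than in healthy_VCV (log2 -1.27 ± 0.24, adjusted p = 0.000114). In chronic_noisy, at 1559, 2392 and 2649, it was above every control_chronic library (811 to 1056) by 1.14 ± 0.23 (adjusted p = 0.000829). These 4 calls held in every alternative run.

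**Figure D3:**
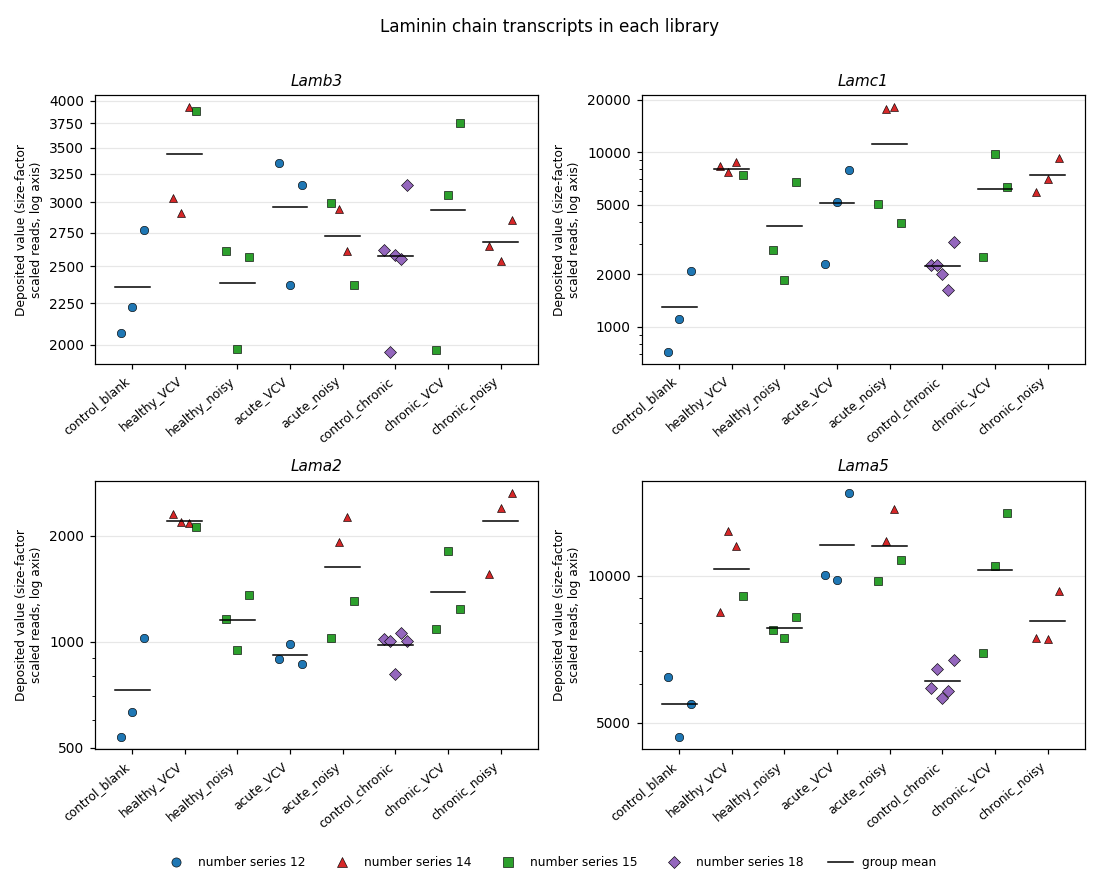
Scaled reads per library (log axis) of 4 laminin genes in the 8 groups; marker shape, number series; line, group mean. Lamb3 stays in a narrow range, Lamc1 splits by series within acute_noisy, Lama2 is high in healthy_VCV (2125 to 2312), and Lama5 is above control_blank in both acute groups.

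Nidogen-1, the main bridge between laminin and type IV networks, spread widely even in control_blank. Nid1 was at 149, 416 and 1040.1 there, at 3898, 2840.0, 3705 and 2422 in healthy_VCV and at 772, 491 and 1591 in healthy_noisy. In acute_VCV it was at 555, 991 and 1201 and in acute_noisy at 1209.6, 4982, 5107 and 1034. Healthy_VCV lay wholly above control_blank, and within acute_noisy only the series 14 libraries reached that level, acute_noisy_053 lying within the control_blank range. The healthy_VCV difference was 2.97 ± 0.60 (adjusted p = 0.000247) and held in every alternative. The acute_noisy difference was 2.56 ± 0.60 (adjusted p = 0.000955), lost with only the series 15 acute_noisy libraries (log2 1.48, adjusted p = 0.0614). Acute_VCV was below healthy_VCV (log2 -1.86 ± 0.60, adjusted p = 0.0125), lost without acute_VCV_040 (log2 -1.53, adjusted p = 0.0709). In chronic_noisy, at 1735, 3503 and 4700.1 against 1131, 1356, 762, 792 and 1296 in control_chronic, it was 1.56 ± 0.58 (adjusted p = 0.0372), lost without control_chronic_113 and control_chronic_114 and without control_chronic_113, control_chronic_115, control_chronic_116, chronic_noisy_079 or chronic_noisy_084 (log2 1.25 to 1.73, adjusted p = 0.0513 to 0.177). Nid2, at 314, 460.2 and 664 in control_blank and 413, 331 and 341 in acute_VCV, was at 825, 740.3, 718 and 665 in healthy_VCV. Acute_VCV lay wholly below healthy_VCV (log2 -1.03 ± 0.29, adjusted p = 0.00431), in every alternative. It was above control_blank in healthy_VCV by 0.68 ± 0.29 (adjusted p = 0.0452), lost with quantile normalization, with edgeR and without control_blank_016, control_blank_021, healthy_VCV_025, healthy_VCV_057, healthy_VCV_060 or healthy_VCV_062 (log2 0.41 to 0.73, adjusted p = 0.0526 to 0.284).

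Other basement membrane proteins, a list of 10 measured genes, had 3 higher and 0 lower in healthy_VCV minus control_blank (29.3% and 28.1% of all genes), 3 and 2 in acute_VCV (20.6% and 16.7%), and 3 and 0 in acute_noisy (31.3% and 28.4%). The higher counts in healthy_VCV and acute_noisy are at the share of all genes. In acute_VCV minus healthy_VCV 1 was higher and 6 lower (26.1% and 26.4%). Frem2, which links basement membranes to the mesenchyme beneath, was 2.26 ± 0.42 (adjusted p = 0.000111) in healthy_VCV against control_blank and -3.72 ± 0.42 (adjusted p = 2.92e-07) in acute_VCV against healthy_VCV, calls that held in every alternative. Ntn4, a laminin-related netrin that binds gamma1, was 1.84 ± 0.32 (adjusted p = 4.39e-05) in healthy_VCV and 1.65 ± 0.32 (adjusted p = 0.000135) in acute_noisy, both in every alternative.

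Of the 9 fibrillar collagens, 4 were higher in healthy_VCV than in control_blank and 4 in chronic_noisy than in control_chronic, and 5 were lower in acute_VCV than in healthy_VCV. Col1a1, the alpha1 chain of type I, was at 10914, 6157 and 11100.2 in control_blank and 28770.4, 28111, 23988 and 18766 in healthy_VCV. In healthy_noisy it was at 9751, 8038 and 17609.7, in acute_VCV at 10957, 9391 and 8429.7 and in acute_noisy at 8805, 19327, 18932 and 10046. Healthy_VCV alone lay wholly above control_blank, by 1.44 ± 0.45 (adjusted p = 0.00837), and acute_VCV lay below healthy_VCV (log2 -1.36 ± 0.45, adjusted p = 0.0128). The first call was lost without control_blank_021 (log2 1.16, adjusted p = 0.0573), and the second held in every alternative. In chronically injured lungs it was at 7334, 12272, 5633, 5709.7 and 10800.3 without ventilation, 9725, 47131 and 13456 in chronic_VCV and 8774, 21015 and 27194 in chronic_noisy. Both ventilated groups overlapped control_chronic, and 1 library, chronic_VCV_069, held the highest value of the series. The chronic_noisy difference, 1.11 ± 0.43 (adjusted p = 0.0432), was lost in a fit of those groups alone, without control_chronic_113 and control_chronic_114 and without control_chronic_113, control_chronic_115, control_chronic_116, chronic_noisy_079 or chronic_noisy_084 (log2 0.78 to 1.28, adjusted p = 0.0504 to 0.245), and the chronic_VCV difference, 1.21 ± 0.43 (adjusted p = 0.0562), was not called.

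Col3a1, the type III chain, was at 39845, 32601 and 48314 in control_blank, 85234, 80581, 67657 and 61845 in healthy_VCV and 36916, 34986 and 30643 in acute_VCV. It was above control_blank in healthy_VCV by 0.88 ± 0.36 (adjusted p = 0.0387), lost with edgeR and without control_blank_016, control_blank_021, healthy_VCV_025, healthy_VCV_057 or healthy_VCV_060 (log2 0.74 to 0.92, adjusted p = 0.0514 to 0.136), and below healthy_VCV in acute_VCV (log2 -1.10 ± 0.36, adjusted p = 0.0124), in every alternative. Col1a2, the other type I chain, was at 15125, 10686 and 15668 in control_blank and 30186, 27041, 24704 and 20512 in healthy_VCV, without overlap, but its difference of 0.90 ± 0.39 (adjusted p = 0.0536) was not called. It was lower in acute_VCV than in healthy_VCV (log2 -1.21 ± 0.39, adjusted p = 0.0123), in every alternative.

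Col5a1, a minor fibril chain, was called in 7 of the 14 group comparisons, 6 times higher and 1 time lower. It was at 678, 1038 and 1598 in control_blank, 4084, 3759, 3342 and 3749.6 in healthy_VCV and 1897, 1743 and 2402 in healthy_noisy. In acute_VCV it was at 1422, 1207.2 and 1654 and in acute_noisy at 2165, 4329, 3781 and 2404, which lay wholly above acute_VCV. Differences from control_blank were 1.84 ± 0.30 (adjusted p = 2.28e-05) in healthy_VCV and 1.55 ± 0.30 (adjusted p = 0.000133) in acute_noisy, which held in every alternative, and 0.45 ± 0.32 (adjusted p = 0.279) in acute_VCV. The healthy_noisy difference, 0.94 ± 0.32 (adjusted p = 0.0271), was lost with edgeR, in a fit of those groups alone and without control_blank_016, control_blank_021, healthy_noisy_029 or healthy_noisy_078 (log2 0.63 to 0.98, adjusted p = 0.055 to 0.189), and the difference between acute modes, 1.10 ± 0.30 (adjusted p = 0.0118), was lost in a fit of those groups alone, with only the series 15 acute_noisy libraries and without acute_VCV_040 (log2 0.69 to 1.10, adjusted p = 0.0587 to 0.168). Col5a1 was also the only fibrillar gene called in both ventilated chronic groups, at 1.07 ± 0.28 (adjusted p = 0.0138) and 1.14 ± 0.28 (adjusted p = 0.00407). These calls were lost without chronic_VCV_069 (log2 0.76, adjusted p = 0.123) and without chronic_noisy_084 (log2 0.88, adjusted p = 0.0502) respectively.

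Col5a2, its partner chain, was at 3471, 5640.1 and 6666 in control_blank, 10762, 9685, 9005 and 9181 in healthy_VCV and 4335, 4229.8 and 4308 in acute_VCV. Healthy_VCV lay above both other groups, by 0.93 ± 0.23 (adjusted p = 0.00156) against control_blank, and acute_VCV was below healthy_VCV (log2 -1.17 ± 0.23, adjusted p = 0.000188), both in every alternative. Of the remaining fibrillar genes, Col27a1 was at 461, 492 and 418 in control_blank and at 246, 200.1, 197 and 300.2 in healthy_VCV, wholly lower (log2 -0.97 ± 0.28, adjusted p = 0.00551), in every alternative. It was lower in acute_VCV (log2 -0.95 ± 0.30, adjusted p = 0.0165), lost in a fit of those groups alone and without control_blank_021 or acute_VCV_045 (log2 -0.95 to -0.62, adjusted p = 0.0503 to 0.135). Col5a3 was lower in control_chronic than in control_blank (log2 -0.83 ± 0.24, adjusted p = 0.0244), lost without control_chronic_113 and control_chronic_114 and without control_blank_016 (log2 -0.88 to -0.75, adjusted p = 0.0618 to 0.186). Col11a2 was lower there (log2 -1.50 ± 0.50, adjusted p = 0.0457), lost without control_chronic_113 and control_chronic_114 and without control_blank_016, control_blank_021, control_chronic_113, control_chronic_114, control_chronic_115 or control_chronic_117 (log2 -1.64 to -1.06, adjusted p = 0.0572 to 0.368). Col24a1, at 8.40 to 25.4 scaled reads in group means, was called in no comparison.

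**Figure D4:**
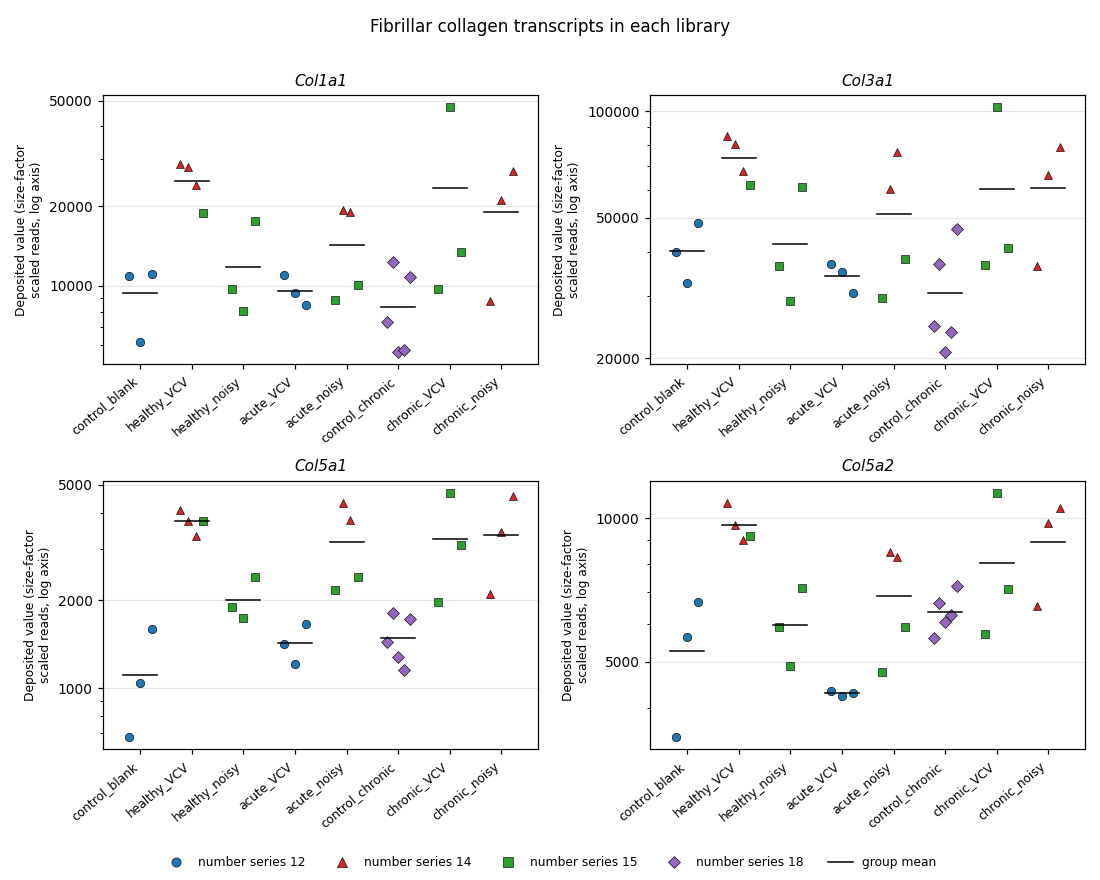
Scaled reads per library (log axis) of 4 fibrillar collagen genes in the 8 groups; marker shape, number series; line, group mean. Healthy_VCV stands above control_blank for all 4, and within acute_noisy the series 14 libraries stand above those of series 15.

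Type VI chains, which form microfilaments beside basement membranes, were higher in healthy_VCV for all 4 members. Col6a3 was at 1113, 2071 and 4345 in control_blank, 12577, 9488, 12248 and 12514 in healthy_VCV and 3545, 3080.1 and 5661 in healthy_noisy. In acute_VCV it was at 3405, 2932 and 4027 and in acute_noisy at 4288, 15893, 14596 and 5031. Healthy_VCV lay wholly above control_blank, and acute_noisy split by series, with acute_noisy_047 and acute_noisy_050 high. The differences from control_blank were 2.43 ± 0.44 (adjusted p = 7.17e-05) in healthy_VCV and 1.96 ± 0.44 (adjusted p = 0.000569) in acute_noisy, and acute_VCV was below healthy_VCV (log2 -1.76 ± 0.44, adjusted p = 0.0017). These 3 calls held in every alternative, whereas the acute mode difference, 1.30 ± 0.44 (adjusted p = 0.0344), was lost in a fit of those groups alone, with only the series 15 acute_noisy libraries and without acute_VCV_040, acute_VCV_045, acute_noisy_047 or acute_noisy_050 (log2 0.44 to 1.30, adjusted p = 0.1 to 0.521). In chronic_noisy it was at 6957, 11160.4 and 13576, wholly above control_chronic (3879.7, 4144, 2285, 2596 and 3864), by 1.64 ± 0.42 (adjusted p = 0.00457), in every alternative.

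Col6a1 was at 2235, 3109.9 and 4499 in control_blank and 10619.7, 8377, 9546 and 10337 in healthy_VCV, without overlap. It was higher than control_blank by 1.62 ± 0.29 (adjusted p = 7.08e-05) in healthy_VCV and 1.58 ± 0.29 (adjusted p = 9e-05) in acute_noisy, both in every alternative, and higher than control_chronic in chronic_noisy by 1.31 ± 0.28 (adjusted p = 0.00132), also in every alternative. Its neighbour Col6a2 moved less, by 0.64 ± 0.21 (adjusted p = 0.0127) in healthy_VCV, lost without control_blank_016 (log2 0.55, adjusted p = 0.0665). The log2 ratio of Col6a1 to Col6a2 ran from -1.72 to -1.06 in control_blank and from -0.55 to -0.34 in healthy_VCV. Col6a6 was lowest in acute_VCV, at 168, 111 and 167 against 264, 388 and 503 in control_blank and 891, 724, 971 and 737 in healthy_VCV. Those differences, -1.34 ± 0.36 (adjusted p = 0.00498) and -2.49 ± 0.33 (adjusted p = 2.33e-06), held in every alternative.

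Col9a2, a chain of the fibril-associated type IX collagen best known from cartilage, was the gene called lower most often. It was at 1008, 348 and 344 in control_blank, 175, 155, 107 and 98.0 in healthy_VCV and 150.3, 247 and 169 in healthy_noisy. In acute_VCV it was at 93.9, 51.7 and 86.3 and in acute_noisy at 53.2, 28.2, 27.8 and 84.3. All ventilated groups lay below control_blank, in which control_blank_016 was far above both others. Differences from control_blank were -1.92 ± 0.40 (adjusted p = 0.000323) in healthy_VCV, -2.71 ± 0.43 (adjusted p = 5.07e-05) in acute_VCV and -3.48 ± 0.40 (adjusted p = 5.98e-07) in acute_noisy, calls that held in every alternative, control_blank_016 left out included. In healthy_noisy it was -1.42 ± 0.43 (adjusted p = 0.0148), lost in a fit of those groups alone and without control_blank_016 or healthy_noisy_029 (log2 -1.42 to -0.90, adjusted p = 0.059 to 0.143). After chronic injury it was at 343, 279.6, 456, 619 and 374 without ventilation and 121, 137 and 91.5 in chronic_noisy, a difference of -1.79 ± 0.38 (adjusted p = 0.0014) in every alternative. Of 8 chondrocyte markers listed, 2 were measured, summing to 963 to 1494 in control_blank, 613 to 1824 in healthy_VCV and 139 to 529 in acute_noisy, nearly all of it Cytl1, with Matn3 at 0 in 4 libraries. The part of cartilage cells was not tested.

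Col7a1, the anchoring fibril collagen, had its clearest difference after chronic injury. It was at 731, 827, 681, 776 and 546 in control_chronic and 2566, 2090.2 and 1693 in chronic_VCV, without overlap, a difference of 1.56 ± 0.26 (adjusted p = 0.000435) called in every alternative. Those runs held no series covariate, and series and group cannot be told apart there. Other series 15 libraries were at 2479, 2363 and 1344 (healthy_noisy), 1331 (healthy_VCV_062), 1021 (acute_noisy_046) and 3299 (acute_noisy_053). Series 14 libraries were at 1062 to 1081 in healthy_VCV and 1569 and 1257 in acute_noisy. The part of series was not tested. In chronic_noisy, at 1198, 969 and 1087, it was 0.62 ± 0.26 (adjusted p = 0.061), not called. Its healthy_noisy difference of 0.77 ± 0.29 (adjusted p = 0.0431) was lost in a fit of those groups alone and without control_blank_016, control_blank_021, healthy_noisy_029 or healthy_noisy_061 (log2 0.61 to 0.77, adjusted p = 0.0757 to 0.176).

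Among membrane-spanning collagens, Col23a1 was at 259, 242 and 258 in control_blank, 408, 524, 315 and 468 in healthy_VCV and 103, 138 and 151 in acute_VCV. It was above control_blank in healthy_VCV by 0.74 ± 0.21 (adjusted p = 0.00425) and below it in acute_VCV (log2 -0.96 ± 0.22, adjusted p = 0.00158), with no overlap in either case and in every alternative. Acute_noisy, at 288, 289, 227 and 308, stood above acute_VCV by 1.09 ± 0.21 (adjusted p = 0.00209), lost in a fit of those groups alone (log2 1.09, adjusted p = 0.0523). Col17a1, the hemidesmosomal collagen, was not called against control_blank in the healthy or acute groups. Its differences were 0.13 ± 0.27 (adjusted p = 0.704) in healthy_VCV, -0.58 ± 0.29 (adjusted p = 0.114) in acute_VCV and -0.43 ± 0.27 (adjusted p = 0.165) in acute_noisy. Col13a1 was lower in acute_VCV (log2 -0.58 ± 0.19, adjusted p = 0.0204), lost in a fit of those groups alone and without control_blank_021 or acute_VCV_049 (log2 -0.58 to -0.38, adjusted p = 0.0618 to 0.147).

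The other members were called rarely. Col8a1, of a network collagen in vessel walls, was at 59.97, 39.3 and 108 in control_blank and 132, 149, 168 and 179 in healthy_VCV, without overlap. The difference was 1.29 ± 0.42 (adjusted p = 0.0114), lost without control_blank_021 (log2 0.95, adjusted p = 0.0886). Col8a2, at 66.9 ± 5.36 (SD, n = 4) in healthy_VCV and 22.6 ± 3.55 (SD, n = 3) in acute_VCV, was lower in acute_VCV (log2 -1.54 ± 0.32, adjusted p = 0.000339), in every alternative. Of the fibril-associated collagens, Col16a1 was lower in acute_noisy than in control_blank (log2 -0.68 ± 0.20, adjusted p = 0.00546), lost in a fit of those groups alone and with only the series 15 acute_noisy libraries (log2 -0.68 to -0.26, adjusted p = 0.0894 to 0.268). Col20a1 was lower there (log2 -1.13 ± 0.27, adjusted p = 0.00107), lost with only the series 15 acute_noisy libraries (log2 -0.56, adjusted p = 0.0754). Col12a1 was called against neither control group. Col4a3bp was called once, lower in acute_VCV than in healthy_VCV (log2 -0.56 ± 0.19, adjusted p = 0.0145), lost without acute_VCV_040 (log2 -0.50, adjusted p = 0.0603).

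**Figure D5:**
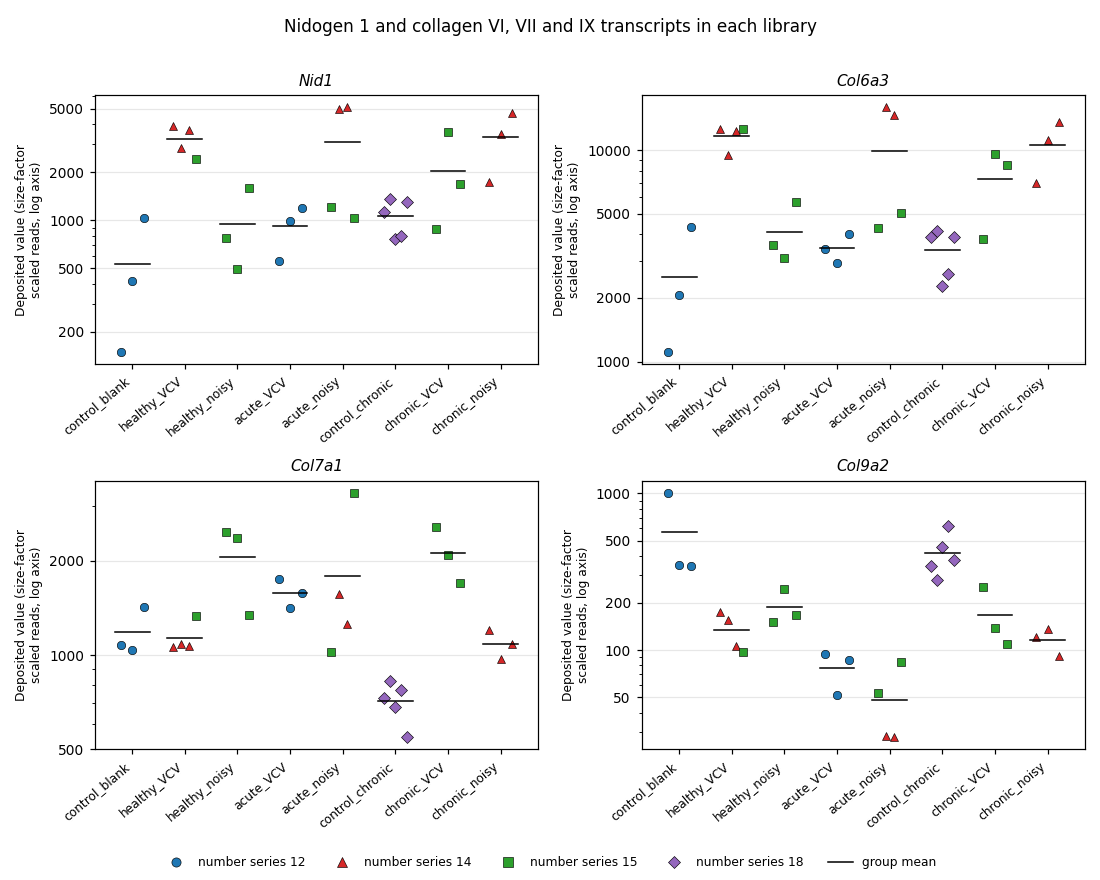
Scaled reads per library (log axis) of Nid1, Col6a3, Col7a1 and Col9a2 in the 8 groups; marker shape, number series; line, group mean. Col9a2 is lowest in the acute groups (27.8 to 84.3 in acute_noisy), and Nid1 and Col6a3 split by series within acute_noisy.

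The acute_noisy group, the only one with 2 libraries in each of 2 series, split by series for many of these genes, as it did for many of all genes tested. Of the 35 genes, 17 were higher in both series 14 libraries than in both of series 15, 8 were lower and 10 overlapped, where 34.6% of all genes tested were higher and 32.9% lower. The largest splits among those described were Lamc1 (5079, 17559.9, 18007 and 3941, where the high values are those of series 14), Nid1 and Col6a3. Col4a3 and Col4a4 overlapped between the series. With only the series 14 libraries acute_noisy minus acute_VCV had 21 genes called, and with only series 15 it had 3, against 10 with all 4. In healthy_VCV, with 3 libraries of series 14 and 1 of series 15, 10 genes were higher and 10 lower in series 14, against 23.1% and 21.8% of all genes.

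Group means differed most for Col9a2, 11.7-fold between its highest group (control_blank) and its lowest (acute_noisy). That control_blank mean holds control_blank_016 at 1008 beside 348 and 344. Lamc1 differed 8.54-fold (acute_noisy over control_blank) and Col6a6 6.23-fold (chronic_noisy over acute_VCV). The acute_noisy mean of Lamc1 holds 17560 and 18007 in series 14 beside 5079 and 3941 in series 15. Lamb3 differed least, 1.46-fold. Healthy_VCV was the highest group for 11 of the 35 genes. The control_blank libraries themselves differed, control_blank_016 holding the lowest of their 3 values for 20 genes and control_blank_074 the highest for 25.

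Of 22 enzymes tested that fold, trim and crosslink collagen, 6 were higher and 4 lower in healthy_VCV minus control_blank (29.3% and 28.1% of all genes). In acute_VCV 5 and 2 were called (20.6% and 16.7%), and in acute_noisy 8 and 4 (31.3% and 28.4%). Against control_chronic, 3 and 1 were called in chronic_VCV (6.89% and 7.9%) and 6 and 1 in chronic_noisy (19.1% and 18.1%). In healthy_VCV these shares are at or below those of all genes. Adamts3, a procollagen N-proteinase, was higher by 3.61 ± 0.51 (adjusted p = 6.51e-06) in healthy_VCV, 3.56 ± 0.55 (adjusted p = 3.93e-05) in acute_VCV and 4.19 ± 0.51 (adjusted p = 1.22e-06) in acute_noisy. Lox, the lysyl oxidase that starts crosslinking, was higher by 2.45 ± 0.51 (adjusted p = 0.000328) in healthy_VCV and 2.91 ± 0.51 (adjusted p = 5.62e-05) in acute_noisy. Its relative Loxl1 was lower in acute_VCV (log2 -1.61 ± 0.40, adjusted p = 0.00297). These 6 calls held in every alternative run.

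Receptors for collagens and laminins (14 measured, 12 tested) had 6 higher and 1 lower in healthy_VCV minus control_blank (29.3% and 28.1% of all genes), 5 and 1 in acute_VCV (20.6% and 16.7%) and 7 and 2 in acute_noisy (31.3% and 28.4%). Itga2 and Itga1, the alpha chains of collagen-binding integrins, were higher in healthy_VCV by 3.31 ± 0.83 (adjusted p = 0.00171) and 3.18 ± 0.64 (adjusted p = 0.000217). Itga6, an alpha chain of laminin-binding integrins, was higher there by 2.38 ± 0.37 (adjusted p = 1.54e-05). Itga7, another laminin-binding chain, was higher in acute_VCV by 1.42 ± 0.24 (adjusted p = 8.18e-05). Those 4 calls held in every alternative run. In acute_VCV minus healthy_VCV 3 receptors were higher and 6 lower (26.1% and 26.4%), Itga1 being lower (log2 -2.53 ± 0.64, adjusted p = 0.00194), in every alternative.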

How the data were processed

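Whole-lobe RNA of 28 libraries in 8 groups was sequenced (poly-A selection, dUTP strand-specific libraries, per the labels' protocols), and how strand was used in counting is not given in the sources used here. Reads were processed with CASAVA 1.8.0, BWA, bedtools 2.11 and DESeq 1.8.3 on build rn4, per the submitters' processing notes, and the gene annotation was Ensembl 67, per the file headers. The deposited values are a signal per gene, a read count that the authors divided by 1 size factor per library. Dividing by the smallest step gave whole reads (within 0.1 read) for 100.0% of values, which gave the depths.

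Each gene was tested with limma 3.58.1 (R 4.3.3) on log2(value + 1) with 8 group means, a trended prior and robust variances, over genes with a mean of at least 10, with Benjamini-Hochberg adjustment and a threshold of 0.05. A fold is on the log2(value + 1) scale, which understates changes of low genes. Interactions compared the noisy minus VCV difference between injuries. Alternatives were edgeR 4.0.16 (quasi-likelihood, TMM) on the recovered reads, a pseudocount of 10, no filter, quantile normalization, a fit of the groups compared alone, the number series as a covariate or within series 15, leaving out each library, and leaving out both shallowest control_chronic libraries. The series covariate was fitted only to comparisons and interactions that hold neither an unventilated group nor acute_VCV. Runs within series 15 were made for only some of those. Over the 16 comparisons and interactions edgeR called 332 to 8987 genes and limma 362 to 8911. Limiting acute_noisy to 1 series was chosen after seeing the data. Tables and figures were made with Python 3.11.15, pandas 2.3.3 and matplotlib 3.10.9, and the fits were tested on simulated data.

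The genes and lists were chosen with earlier results of these data known. A gene whose name fits the rule is not reported here. All 35 others could be named, in each comparison and class up to 4 of the highest and 4 of the lowest called and those fixed for their role. Of each further list up to 3 called genes of largest change per comparison could be named.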

Additional observations from a re-analysis of the deposited data

Results flagged for a closer look

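In 5 of 105 groups of 4 or 5 libraries, 1 library stood far from the others by Dixon's criterion, and chance gives about 1 in 20. Lama2 was at 811.23 in control_chronic_115, against 1004.53 to 1056.48 in the others. Nid2 was at 308.5 in acute_noisy_046, against 611.17 to 658.77. Col6a3 was at 9488.46 in healthy_VCV_057, against 12248 to 12577. Col7a1 was at 1330.97 in healthy_VCV_062, the series 15 library of its group, against 1061.89 to 1081.31. Col4a3bp was at 1329.03 in control_chronic_117, against 2748.52 to 2945.69.

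The noisy minus VCV difference was larger after acute injury than in uninjured lungs (limma interaction, log2) for 17 genes. Among basement membrane genes the interaction was 3.35 for Nid1, 2.27 for Lamc1, 2.08 for Col4a3, 2.05 for Col4a5, 1.93 for Col4a4, 1.71 for Lama2 and 1.05 for Nid2. Among fibrillar collagens it was 2.001 for Col5a1, 1.63 for Col1a1, 1.35 for Col3a1 and 1.34 for Col5a2. Among other collagens it was 2.85 for Col6a3, 2.35 for Col6a6, 1.59 for Col8a1, 1.42 for Col6a1, 1.09 for Col12a1 and 1.07 for Col23a1. Calls of Col4a3, Col4a4, Col4a5, Lama2, Nid1, Col5a1, Col5a2, Col6a3, Col6a6 and Col23a1 held in every alternative run, but these did not include a series covariate, which could not be fitted here, and series and group cannot be told apart.

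After chronic injury the same difference was larger than in uninjured lungs for 10 genes, at 2.71 for Nid1, 2.14 for Col6a3, 1.96 for Col4a5, 1.85 for Col8a1, 1.67 for Col4a3, 1.62 for Lama2, 1.39 for Col6a6, 1.37 for Col4a4, 1.09 for Col12a1 and 0.89 for Col5a2. It was smaller for Col7a1 (-1.76) and Col27a1 (-1.53). None of these 12 calls held with the series as a covariate.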

How the results depend on the processing

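Of 9714 alternatives run for single genes, 8725 kept the side of the threshold, 771 lost a call and 218 gained one. In 0 did a gene called in either run change direction. A change of sign with no call in either run was counted among the 8725. Of 224 alternatives for counts of called genes, 158 stayed within 1.5 times and 66 did not. The cause of the changes was not tested, except that fits of fewer libraries have less precision by construction. A fit of the groups compared alone called 5 instead of 3 genes in control_chronic minus control_blank, 3 instead of 10 in healthy_noisy minus control_blank, 22 instead of 8 in healthy_noisy minus healthy_VCV, 0 instead of 10 in acute_noisy minus acute_VCV and 0 instead of 9 in acute_noisy minus healthy_noisy. It called 4 instead of 1 in chronic_VCV minus healthy_VCV and 6 instead of 2 in chronic_noisy minus healthy_noisy. With the series as a covariate the counts were 0 in healthy_noisy minus healthy_VCV, 1 in acute_noisy minus healthy_noisy, 0 in chronic_VCV minus healthy_VCV, 0 in chronic_noisy minus healthy_noisy and 0 (of 12) for the chronic mode interaction. Within series 15 they were 0 in healthy_noisy minus healthy_VCV, 0 in acute_noisy minus healthy_noisy and 0 in chronic_VCV minus healthy_VCV. Without both shallowest control_chronic libraries 1 gene was called in control_chronic minus control_blank. Over all genes, calls in that comparison were 2214 in the main fit, 866 in a fit of those groups alone and 701 without both libraries. With only the series 14 acute_noisy libraries the counts were 21 in acute_noisy minus acute_VCV, 17 in acute_noisy minus healthy_noisy and 26 for the acute mode interaction, and with only series 15 they were 3, 0 and 11. Quantile normalization moved the median of all genes in healthy_VCV minus control_blank from -0.03 to -0.13.

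Leaving out 1 library gave counts of 0 to 7 in control_chronic minus control_blank, 17 to 25 in healthy_VCV minus control_blank, 2 to 12 in healthy_noisy minus control_blank, 7 to 12 in acute_VCV minus control_blank and 15 to 20 in acute_noisy minus control_blank. Against control_chronic they were 3 to 12 in chronic_VCV and 7 to 19 in chronic_noisy. Between modes they were 0 to 13 in healthy, 3 to 15 in acute and 0 to 1 in chronic lungs. Between injuries they were 16 to 21 in acute_VCV minus healthy_VCV, 1 to 14 in acute_noisy minus healthy_noisy, 0 to 5 in chronic_VCV minus healthy_VCV and 0 to 5 in chronic_noisy minus healthy_noisy. For the mode interactions they were 12 to 22 (acute) and 5 to 19 (chronic). No paired analysis was possible because replicate numbers are not shared between the groups, so no pair of libraries can be formed. Depth limits genes of few reads such as Col24a1, whose lowest library held 0.84 scaled reads.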
